A study of Mus musculus with 3 samples.

Results

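The 10 genes described here are markers of microglia in their resting, homeostatic state: the purinergic and related receptors P2ry12, P2ry13 and Gpr34, the cytokine receptors Cx3cr1 and Csf1r, the surface proteins Siglech, Fcrls and Tmem119, the sugar transporter Slc2a5 and the transcription factor Sall1. They were chosen by name from the 54532 genes of the expression table, and each name matched 1 gene. All 10 are annotated as protein-coding and passed the filter of at least 1 FPKM in either library in each of the 3 comparisons. FPKM is the number of fragments per kilobase of gene length and per unit of library size, so that it can be set side by side between genes.

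Microglia are the resident macrophages of the brain. They depend on signalling through Csf1r for survival, sense neurons through receptors such as Cx3cr1 and P2ry12, and hold their resting identity through TGF-beta signalling and through transcription factors that include Sall1 and PU.1. In models of neurodegeneration many microglia lower homeostatic markers such as P2ry12 and Tmem119 while they raise disease-associated genes such as Cst7 and Itgax.

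Hippocampus was taken from 10-month-old mice on a C57BL/6 background, and 1 library was made for each of 3 genotypes: WT, PS19, and PS19 with 1 Zbp1 allele lost (PS19 Zbp1+/-). PS19 is a tauopathy model in which mutant human tau is expressed under the Prnp promoter, and both PS19 libraries carry that transgene. Zbp1 encodes a sensor of Z-form nucleic acids. Values given in threes below follow the order WT, PS19, PS19 Zbp1+/-. The labels do not say how many animals went into a library, and none of the differences below has a replicate check: each compares 2 libraries, and each interval covers counting error only.

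The recovered reads summed to 16746085, 16400328 and 17109734. The implied library sizes behind the FPKM values and read ratios were 17253479, 17287957 and 15826984. PS19 Zbp1+/- thus had the most reads but the smallest implied size. Scaling by total reads lowers its values relative to the other libraries, and the intervals of read ratios do not cover this choice. Zbp1 itself was counted with 5, 91 and 0 reads. The last library is called PS19 Zbp1+/- by its label throughout, since 0 reads do not show 1 intact allele. Xist had 11062, 13350 and 0 reads and the Y-linked Ddx3y 0, 0 and 711 reads, so sex and Zbp1 genotype cannot be told apart. Choroid plexus markers were almost absent from PS19 Zbp1+/-, with a summed FPKM of 10.4 over 5 genes against 3109 in WT and 1899 in PS19. Their part in the members' differences was not tested.

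The homeostatic genes did not move as a block. Fcrls, Cx3cr1 and Csf1r were far higher in PS19 than in WT, P2ry12 and Tmem119 were at nearly the same level in both, and Slc2a5 was highest in PS19 Zbp1+/-. In PS19 Zbp1+/- most members were lower than in PS19, but Fcrls and Cx3cr1 were still above WT by 3.52-fold and 2.64-fold in reads per library size. A change in the number of microglia and a change in RNA per cell cannot be told apart in such bulk tissue.

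On the scale of log2(FPKM + 1), 3 of the 10 members (Fcrls, Cx3cr1 and Csf1r) were at least 2-fold higher in PS19 than in WT, where 2.20% of all 12703 protein-coding genes tested were. None was at least 2-fold lower, against 0.291% of all genes. The members' median difference was 0.77, beside -0.03 over all genes tested, and 8 of the 10 differences were above 0. The count of members at least 2-fold higher was 4 with 0.1 added to FPKM in place of 1, against 4.26% of all genes. With log2 read ratios it was also 4, against 4.51%. The added member was Siglech, at 1.01 and 1.03.

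In PS19 Zbp1+/-, 3 members (Gpr34, Csf1r and Fcrls) reached 2-fold below PS19, against 5.16% of 12772 genes, and none was at least 2-fold higher, against 2.0%. The median difference was -0.59 beside 0.04 over all genes, with 9 of 10 differences below 0. Between PS19 Zbp1+/- and WT, 2 members (Fcrls and Cx3cr1) were at least 2-fold higher, against 1.07% of 12436 genes, and none was at least 2-fold lower, against 2.28%. The median was 0.30 beside 0.01 over all genes. Across the 3 libraries, 6 members were highest in PS19 and lowest in WT, an order that 10.2% of 12875 genes showed. Sall1 is among these 6, and it was no longer lowest in WT when libraries were scaled by their FPKM sum or by total reads. These 3 comparisons share libraries in pairs, so a chance deviation of 1 library enters 2 of them.

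**Figure D1:**
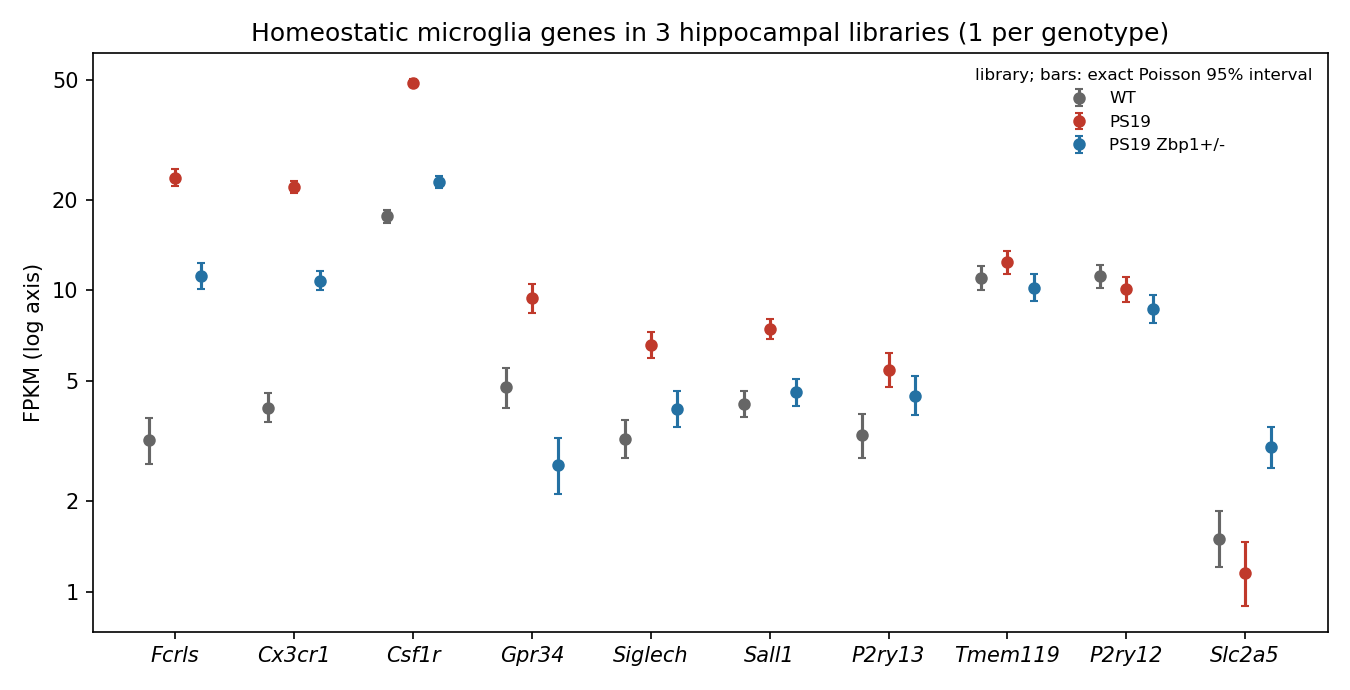
FPKM of the 10 members (log axis) in WT, PS19 and PS19 Zbp1+/-, with exact Poisson 95% intervals, ordered by the difference between PS19 and WT. Fcrls, Cx3cr1 and Csf1r stand highest in PS19, P2ry12 and Tmem119 lie close together in the 3 libraries, and Slc2a5 is highest in PS19 Zbp1+/-.

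P2ry12 encodes the ADP receptor that steers microglial processes to sites of injury. Its FPKM values were 11.2, 10.1 and 8.66, from 490, 444 and 349 reads. The level was highest in WT and lowest in PS19 Zbp1+/-, and the intervals of WT and PS19 overlapped. The read ratio between PS19 and WT was 0.904, and its exact 95% interval (Clopper-Pearson) ran from 0.794 to 1.03, so no difference was detectable at this depth. PS19 Zbp1+/- lay below WT at a ratio of 0.776 (0.675 to 0.893). P2ry12 (ENSMUSG00000036353) lies on the minus strand of chromosome 3, from 59216272 to 59262871.

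P2ry13, a second ADP receptor, is the neighbour of P2ry12 and ends 5389 bases from it on the same strand (ENSMUSG00000036362, 59207892 to 59210882). Its FPKM values were 3.30, 5.45 and 4.47, from 144, 238 and 179 reads. It was higher in PS19 than in WT, at a ratio of 1.65 (1.34 to 2.04). In PS19 Zbp1+/- it lay between the other libraries at 1.36 times WT (1.08 to 1.70). The log2 difference between PS19 Zbp1+/- and WT, 0.35, went to 0.22 when libraries were scaled by their FPKM sum or by total reads. Both genes lie inside the Med12l gene, which is on the opposite strand and shares 9 exon bases with P2ry12 and none with P2ry13.

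Gpr34 encodes a lysophosphatidylserine receptor related to the P2Y family. Its FPKM values were 4.77, 9.41 and 2.63, from 172, 340 and 87 reads. The gene was the member with the largest decrease between PS19 and PS19 Zbp1+/-, at a ratio of 0.280 (0.218 to 0.355), and lay under WT there at 0.551 (0.421 to 0.718), as P2ry12 did by less. Gpr34 is X-linked (ENSMUSG00000040229, chromosome X, 13632089 to 13640858, plus strand) and lies within the span of Cask on the opposite strand, with which it shares no exon base. The part of the sex difference between the libraries in this result was not tested.

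Cx3cr1 encodes the receptor for fractalkine, the neuronal chemokine Cx3cl1. The levels were 4.08, 22.1 and 10.8 FPKM, from 317, 1718 and 768 reads. The 3 levels were clearly apart, with PS19 Zbp1+/- between the others. The ratio of PS19 over WT was 5.41 (4.80 to 6.12), and the log2 difference of 2.18 was above that of 99.8% of the genes tested. PS19 Zbp1+/- was at 0.488 of PS19 (0.448 to 0.532) but at 2.64 times WT (2.31 to 3.02). On the log2 scale the decrease was -0.97, just short of 2-fold, and it passed 2-fold with smaller pseudocounts or other scalings. The gene model on chromosome 9 (ENSMUSG00000052336, 119901616 to 120069879, minus strand) is long and overlaps 9 other genes, with which 1.73% of its exon bases are shared.

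Its ligand Cx3cl1 showed no such increase. Cx3cl1 had 8464, 7315 and 10320 reads. PS19 was at 0.863 of WT (0.836 to 0.890) and PS19 Zbp1+/- at 1.54 times PS19 (1.495 to 1.59).

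Csf1r, the receptor for the growth factors Csf1 and Il34, was the most strongly expressed member in every library. The levels were 17.6, 48.7 and 23.0 FPKM, from 1484, 4115 and 1776 reads. PS19 was at 2.77 times WT (2.61 to 2.94). PS19 Zbp1+/- was at 0.471 of PS19 (0.446 to 0.499) and at 1.30 times WT (1.22 to 1.40). Csf1r (ENSMUSG00000024621, chromosome 18, 61105572 to 61132149, plus strand) was the only member whose length in the table, 4885 bases, differed from the GENCODE M21 exons, 5774 bases. Of those 5774 bases, 15.1% also belong to Hmgxb3 on the opposite strand. Whether the shared bases are part of the shorter length used for counting is not known.

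The ligands of Csf1r went in opposite directions between PS19 and WT. Csf1 had 460, 1276 and 405 reads, at 2.77 times WT in PS19 (2.49 to 3.09) and 0.347 of PS19 in PS19 Zbp1+/- (0.309 to 0.388). Il34, which is made mainly by neurons in the brain, had 839, 582 and 827 reads, at 0.692 of WT in PS19 (0.622 to 0.770) and 1.55 times PS19 in PS19 Zbp1+/- (1.39 to 1.73).

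Fcrls, an Fc receptor-like scavenger protein found in mouse microglia, showed the widest change. The levels were 3.18, 23.7 and 11.2 FPKM, from 128, 955 and 413 reads. No 2 of the 3 intervals overlapped. PS19 was at 7.45 times WT (6.19 to 9.03), and the log2 difference of 2.56 was above that of 99.9% of the genes tested. PS19 Zbp1+/- was at 0.472 of PS19 (0.420 to 0.531) and at 3.52 times WT (2.88 to 4.32). Fcrls (ENSMUSG00000015852) is on the minus strand of chromosome 3, from 87250758 to 87263738, and overlaps no other annotated gene.

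Siglech encodes a sialic acid binding lectin that signals through the adaptor Tyrobp. Its FPKM values were 3.22, 6.58 and 4.05, from 188, 385 and 217 reads. PS19 stood apart from both others, at 2.04 times WT (1.71 to 2.45), and PS19 Zbp1+/- was at 0.616 of PS19 (0.519 to 0.729). The adaptor differed by more than the receptor: Tyrobp had 131, 582 and 114 reads, at 4.43 times WT in PS19 (3.66 to 5.40) and 0.214 of PS19 in PS19 Zbp1+/- (0.173 to 0.262). The related adaptor Hcst had only 5, 13 and 0 reads. Siglech (ENSMUSG00000051504) lies on the plus strand of chromosome 7, from 55768178 to 55778925.

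Promoter windows, the 250 bases before a RefSeq start site (GRCm38.p6), were found for 7 of the 10 members, 9 windows in all. PU.1, the product of Spi1, is a macrophage factor that binds purine-rich sites with a GAGGAA core, and the ETS-IRF composite element joins a half-site of that family with one of interferon regulatory factors. Both were searched on both strands. RefSeq start sites and the gene spans of the table do not always meet: that of Fcrls lies inside the gene, so its window overlaps annotated exons. Only stretches outside every exon of GENCODE M21 are printed, 5′ to 3′ along the gene, with a match to GAGGAA in capitals. They are from Fcrls (chr3:87263600-87263677, minus strand), the member with the largest increase, from P2ry13 (chr3:59210883-59211132, minus strand), which also holds the core, and from Slc2a5 (chr4:150119094-150119235, plus strand), whose level was highest in PS19 Zbp1+/-.
Fcrls: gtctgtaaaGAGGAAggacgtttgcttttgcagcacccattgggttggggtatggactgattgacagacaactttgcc
P2ry13: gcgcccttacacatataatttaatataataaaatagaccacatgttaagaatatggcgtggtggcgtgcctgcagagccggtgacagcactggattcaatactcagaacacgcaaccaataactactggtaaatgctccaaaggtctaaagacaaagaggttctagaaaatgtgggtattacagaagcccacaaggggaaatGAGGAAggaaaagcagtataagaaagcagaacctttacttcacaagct
Slc2a5: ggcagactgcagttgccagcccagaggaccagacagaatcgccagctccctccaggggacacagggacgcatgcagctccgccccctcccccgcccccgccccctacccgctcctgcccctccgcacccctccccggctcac

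The GAGGAA core was found in the window of Fcrls, at offset -144 from the RefSeq start site and inside the annotated gene span, and in that of P2ry13, at offset -48. It was thus present in 2 of 9 member windows, beside 23.3% of the 32851 RefSeq windows of the same length. The composite element was in 0 of the 9 windows and in 2.30% of all windows. A match is a description of the letters and not a binding site. The windows of Cx3cr1 and P2ry12, which lie wholly in annotated exons (for P2ry12 those of another gene), held neither motif and are not printed. The bases that follow the P2ry12 start site were in no GENCODE M21 transcript of that gene.

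Tmem119 encodes a membrane protein used to tell microglia from other macrophages. Its FPKM values were 11.02, 12.4 and 10.2, from 440, 497 and 374 reads. WT overlapped both others, while PS19 and PS19 Zbp1+/- were just apart, at a ratio of 0.822 (0.717 to 0.942). The ratio of PS19 over WT was 1.13 (0.990 to 1.28), and that of PS19 Zbp1+/- over WT was 0.927 (0.805 to 1.07). Neither difference from WT was thus detectable at this depth with the implied library sizes. With scaling by FPKM sum the log2 differences from WT were wider, from 0.16 to 0.28 for PS19 and from -0.10 to -0.24 for PS19 Zbp1+/-. Tmem119 (ENSMUSG00000054675) is on the minus strand of chromosome 5, from 113793729 to 113800516.

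Slc2a5, which encodes the fructose transporter GLUT5, was highest in PS19 Zbp1+/-. Its FPKM values were 1.499, 1.16 and 3.03, from 88, 68 and 163 reads, the lowest counts of any member in WT and PS19. WT and PS19 overlapped, at a ratio of 0.771 (0.554 to 1.07). PS19 Zbp1+/- stood above both, at 2.62 times PS19 (1.96 to 3.53) and 2.02 times WT (1.55 to 2.65). On the log2(FPKM + 1) scale the difference to PS19 was 0.90, below 2-fold because 1 is added to a low value. Slc2a5 (ENSMUSG00000028976) is on the plus strand of chromosome 4, from 150119283 to 150144169.

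Sall1, a zinc finger repressor that holds microglial identity, had FPKM values of 4.21, 7.47 and 4.58, from 382, 680 and 382 reads. PS19 was at 1.78 times WT (1.56 to 2.02). PS19 Zbp1+/- was at 0.614 of PS19 (0.540 to 0.697) and close to WT at 1.09 (0.944 to 1.26), a direction that turned when libraries were scaled by their FPKM sum or by total reads. Sall1 (ENSMUSG00000031665) is on the minus strand of chromosome 8, from 89027235 to 89044162.

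The order of the levels also differed between libraries. In WT, Csf1r was followed by P2ry12 and Tmem119, whose intervals overlapped, and then by Gpr34 at less than 5 FPKM. Sall1, Cx3cr1, P2ry13, Siglech and Fcrls followed in that order, and each overlapped the next from Gpr34 down to Fcrls. Slc2a5 was lowest. In PS19, Fcrls and Cx3cr1 came next after Csf1r, with overlapping intervals, and both lay above Tmem119 and P2ry12. In PS19 Zbp1+/- the order from Csf1r to P2ry12 was the same as in PS19, but Fcrls, Cx3cr1 and Tmem119 each overlapped the next, and the lowest members were Slc2a5 and Gpr34, whose intervals overlapped.

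The summed FPKM of the 10 members was 64.0, 147 and 82.6. P2ry12 and Tmem119 together made up 34.6%, 15.3% and 22.9% of that sum. Cx3cr1 and Fcrls made up 11.3%, 31.1% and 26.6%. The make-up in PS19 Zbp1+/- thus lay between the other libraries on both counts. The share of Csf1r ranged from 27.5% to 33.1%.

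**Figure D2:**
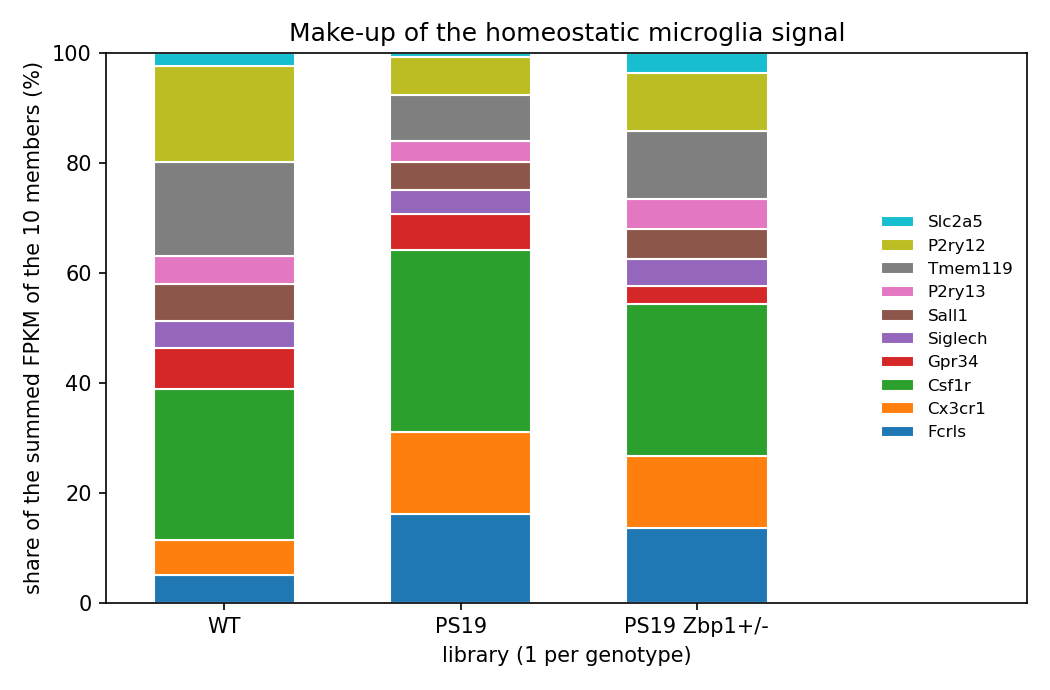
Share of each member in the summed FPKM of the 10 members (percent) in each library. P2ry12 and Tmem119 together take 34.6% in WT and 15.3% in PS19, and Cx3cr1 and Fcrls take 11.3% in WT and 31.1% in PS19.

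Genes that microglia express in most states were set beside the members. Whether the RNA of these genes per cell differed between libraries was not tested. The pan-microglia list of 12 genes (Aif1, Itgam, Ptprc, Cd68, C1qa, C1qb, C1qc, Ctss, Laptm5, Fcer1g, Cd53 and Ly86) had a median difference of 1.82 between PS19 and WT, and 10 of the 12 were at least 2-fold higher. Its range ran from 0.72 for Itgam to 2.24 for Ctss, the lysosomal protease cathepsin S. Most members lay below this list's median: their own median was at -1.05 relative to the list's median, and 5 of the 10 (P2ry12, P2ry13, Tmem119, Slc2a5 and Sall1) were below its lowest gene. Fcrls alone was above its highest gene, and Cx3cr1 was 0.36 above its median. These positions depend on the 1 added to low values. By read ratio Itgam (2.27) and Ptprc (4.91), which fell short of 2-fold on the log2 scale, were past it. Itgam was still the list's lowest gene, but Gpr34 (1.97) and Siglech (2.04) were also below it. Ptprc was the list's highest gene, and Cx3cr1 (5.41) was also above it. Since members and list come from the same 2 libraries, this is a description of these libraries.

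Between PS19 Zbp1+/- and PS19 the relation was turned round. All 12 pan-microglia genes reached 2-fold below PS19, with a median of -1.49 and the lowest values for Ctss at -2.73 and C1qa at -2.35. The members' median was 0.90 above that of the list, and 8 of 10 members lay above the list's highest value of -1.02, the exceptions being Gpr34 and Csf1r. Fcrls, at -1.018, was barely above the list's highest value, -1.022. That value is of Itgam, a low gene whose change is understated where 1 is added. By read ratio Itgam was at 0.280 of PS19, and the list's highest gene was Laptm5 at 0.419. Csf1r (0.471) and Fcrls (0.472) were both above Laptm5 by that measure, and Gpr34 (0.280) was not.

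Between PS19 Zbp1+/- and WT, 11 pan-microglia genes passed the filter, none of these differed by 2-fold, and the median was 0.17. The gene left out was Ptprc, which passed the filter in the other comparisons only through its level in PS19. It had 84 reads in WT and 36 in PS19 Zbp1+/-, at a ratio of 0.467 (0.307 to 0.698). The positions below are among the genes that passed. Laptm5 was highest at 0.72 and Ctss lowest at -0.49. Cx3cr1 at 1.21 and Fcrls at 1.54 were above the whole list, and Gpr34 at -0.67 was below it. The other 7 members were within the range of the list.

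**Figure D3:**
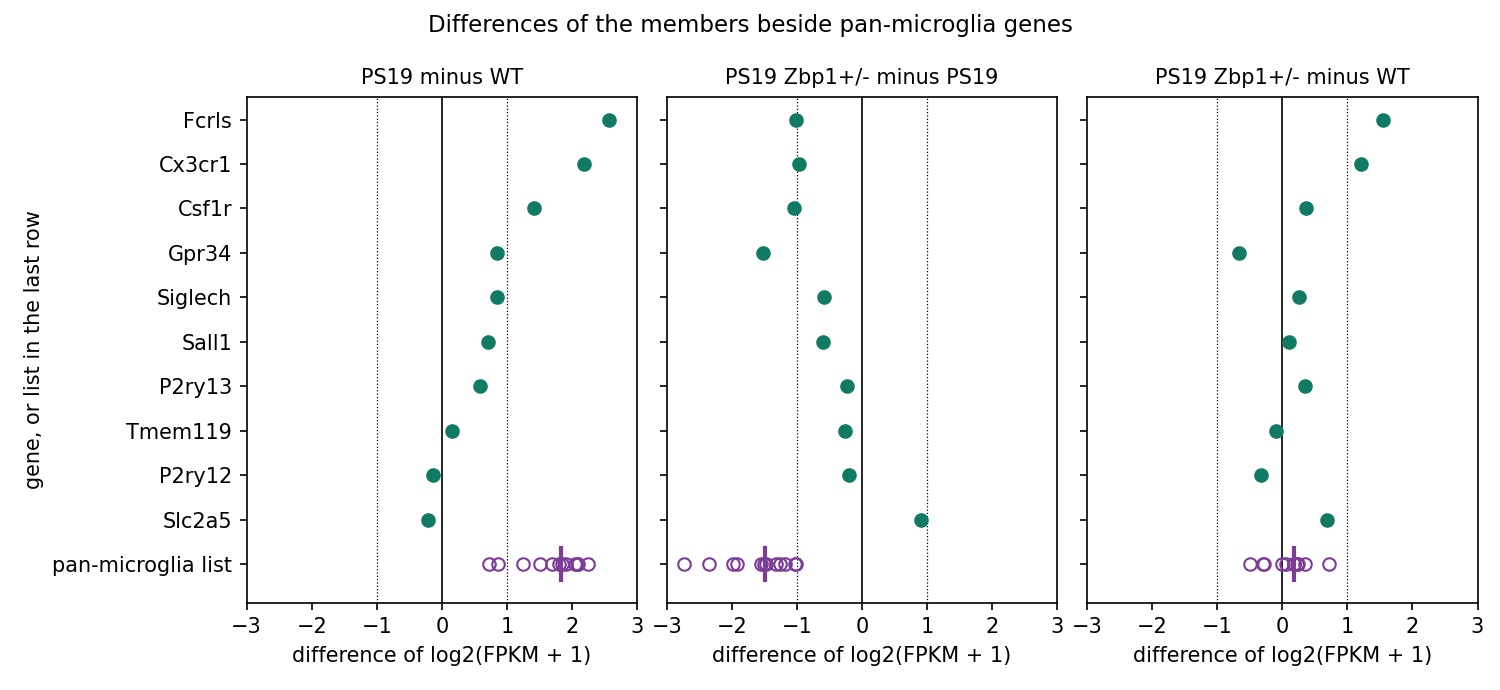
Difference of log2(FPKM + 1) for each member (filled points) and for the pan-microglia genes tested (open points, bar at the median) in the 3 comparisons, with dotted lines at 2-fold. Of the 10 members, 5 lie left of all pan-microglia genes in PS19 minus WT and 8 lie right of all of them in PS19 Zbp1+/- minus PS19, while Fcrls and Cx3cr1 lie right of them in PS19 Zbp1+/- minus WT.

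A second list of 12 homeostatic microglia genes gave medians close to those of the members: 0.67 between PS19 and WT and -0.69 between PS19 Zbp1+/- and PS19. In PS19, 3 of its genes reached 2-fold above WT, among them Cd33, an inhibitory lectin, at 1.15. None was at least 2-fold lower. Crybb1 was lowest at -0.95. It had 60, 23 and 106 reads, at 0.383 of WT in PS19 (0.226 to 0.628) and 5.03 times PS19 in PS19 Zbp1+/- (3.18 to 8.28). Ltc4s, which makes leukotriene C4, was at -0.33 in PS19 and at -1.08 between PS19 Zbp1+/- and WT, from 61, 45 and 18 reads. Cd33 (-1.29) was also among the 2 genes that PS19 Zbp1+/- held 2-fold or more below PS19, a count of 4 with scaling by FPKM sum and of 3 by total reads. Against WT the list's median in PS19 Zbp1+/- was 0.13, and it turned to -0.02 when libraries were scaled by their FPKM sum.

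The disease-associated list had a median of 1.37 between PS19 and WT over 11 of 12 genes, with 8 at least 2-fold higher, led by Cst7 at 3.19 and Itgax at 2.82. Csf2ra at 0.21 and Lpl at 0.50 were its lowest. Cst7 had 12, 248 and 0 reads and Itgax 14, 602 and 5, so both were near the floor in WT. Csf2ra had 511, 596 and 378 reads and Lpl 643, 990 and 725. Which cell types these reads came from was not tested. Between PS19 Zbp1+/- and PS19 its median was -1.78, with 9 of 11 at least 2-fold lower, and between PS19 Zbp1+/- and WT it was -0.11 over 8 genes. Clec7a, annotated as a polymorphic pseudogene, is the gene left out.

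**Figure D4:**
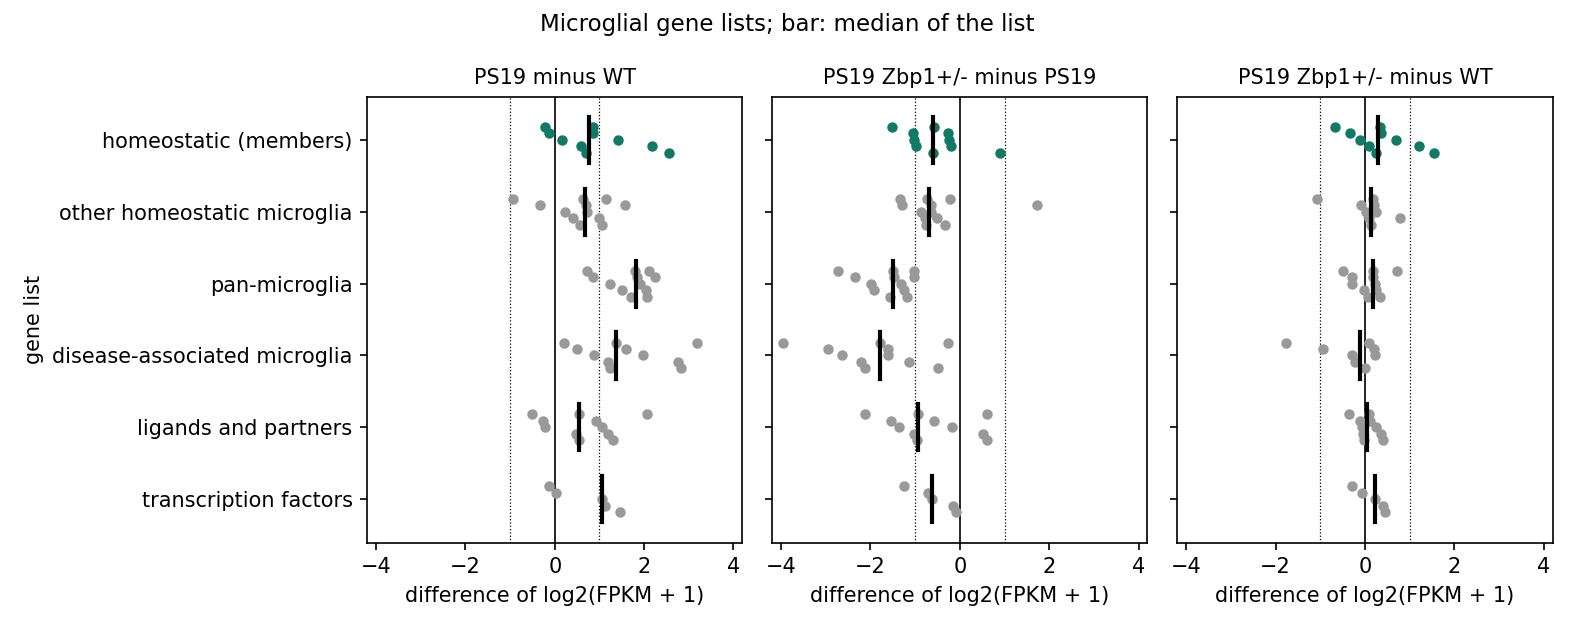
Difference of log2(FPKM + 1) for every protein-coding gene tested in 6 microglial lists (points) with the median of each list (bar), in the 3 comparisons. In PS19 minus WT the members' median of 0.77 lies below the 1.82 of the pan-microglia list, and in PS19 Zbp1+/- minus WT the list medians lie between -0.11 and 0.30.

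The pathways that feed the members were followed through 12 ligands and partners, of which 11 passed the filter between PS19 and WT. Of these, 4 were at least 2-fold higher in PS19 (Csf1, Tgfbr1, Tyrobp and Entpd1) and none was at least 2-fold lower. Entpd1, which breaks down the nucleotides that P2ry12 and P2ry13 sense, had 143, 406 and 150 reads. Nt5e, which acts after it to release adenosine, had 87, 62 and 42 reads and stayed below 1 FPKM.

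In the TGF-beta branch, which maintains the homeostatic state, the receptor Tgfbr1 had 544, 1384 and 365 reads, at 2.54 times WT in PS19 (2.30 to 2.81). Tgfbr2 was at 2.21 times WT (1.97 to 2.49), the ligand Tgfb1 at 1.72 (1.40 to 2.13) and Nrros, which anchors the latent ligand on microglia, at 1.58 (1.29 to 1.94). Smad3, the signal transducer, was at 0.821 (0.761 to 0.887). Which cell types the reads of any of these genes came from was not tested. In PS19 Zbp1+/-, 4 of 11 genes reached 2-fold below PS19 (Csf1, Tgfbr1, Tyrobp and Hcst). The count was 6 of 11 when libraries were scaled by their FPKM sum or by total reads. Hcst passed the filter only through PS19. Its difference rests on 13 reads there against 0 in PS19 Zbp1+/-, too few for a read ratio. Against WT, none of 10 reached 2-fold in that library.

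Of 6 transcription factors, 5 passed the filter, and 3 were at least 2-fold higher in PS19 than in WT. Spi1 had 68, 205 and 97 reads, with a difference of 1.13. Irf8, a partner of PU.1, had 98, 487 and 124 reads and a difference of 1.47. Mef2a (0.02) and Mef2c (-0.13) were close to WT. Runx1 stayed below 1 FPKM with 17, 105 and 21 reads. Irf8, at -1.24, was the only one to reach 2-fold below PS19 in PS19 Zbp1+/-. Which cell types the reads of any of the 6 factors came from was not tested.

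Other cells of the tissue were followed through their own markers. Border macrophages, which also express Csf1r and Cx3cr1, had 220, 323 and 34 reads over 7 markers, and 2 of the 7 (Pf4 and Ms4a7) were at 0 in PS19 Zbp1+/-. Their summed FPKM was 3.60, 4.61 and 0.529, and their part in the members' differences was not tested. Monocyte and neutrophil markers summed to 25, 64 and 3 reads over 6 genes, and T cell markers to 18, 41 and 17 reads over 5 genes, with 5 of the 6 and 4 of the 5 at 0 in PS19 Zbp1+/-.

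The 5 astrocyte markers had a median of 0.54 between PS19 and WT, with Gfap at 2.95, the 5 oligodendrocyte markers one of 0.81, and the 4 endothelial markers one of 0.30. The 5 neuron markers had a median of -0.12, which turned to 0.01 with scaling by FPKM sum. In PS19 Zbp1+/- against PS19 the medians were -0.80 for astrocytes, -1.38 for oligodendrocytes, -0.18 for endothelium and 0.41 for neurons. With scaling by FPKM sum the last of these were -0.41 and 0.13. Astrocyte and oligodendrocyte genes thus moved the same way as most members, and their part in the members' differences was not tested.

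Outside all these lists, the protein-coding genes with the pattern closest to the members' median were sought among 12059 genes with at least 200 reads. Likeness was the Euclidean distance of the pair of log2 differences (PS19 minus WT, PS19 Zbp1+/- minus PS19), over 3 libraries. The nearest 5 were Adarb1, Aldh1l2, Srebf1, Unc13c and Akna, at distances of 0.04 to 0.06. Adarb1, for example, had 2797, 4851 and 2962 reads. The distance says only that their values are alike.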

How the data were processed

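RNA-seq of hippocampus gave 3 libraries, 1 per genotype. The authors deposited 1 table of FPKM values for 54532 genes. Trim Galore 0.6.5, STAR 2.5.3a, featureCounts 2.0.4 and the build mm39 are named in the submitters' processing notes. The gene positions in the table, however, equal those of GENCODE M21 (GRCm38) for 98.3% of the IDs found there and for 9 of the 10 members, so coordinates are given as GRCm38. Strandedness and filters are not given in the sources used here, so reads of overlapping genes on opposite strands cannot be told apart.

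Multiplied by gene length, 100% of the FPKM values were whole numbers of reads (within 0.01 reads) once divided by a step fixed per library, which gave the reads and implied library sizes of 17253479 (WT), 17287957 (PS19) and 15826984 (PS19 Zbp1+/-). Differences are of log2(FPKM + 1), so they understate changes of low genes, over protein-coding genes with at least 1 FPKM in either library, and 2-fold is 1 log2 unit. Ratios of reads use the implied library sizes and carry exact 95% (Clopper-Pearson) intervals. Levels have exact Poisson intervals. Reads are not independent molecules, so both cover counting error only. No p-value was computed. BLAST 2.17.0 found no transcript of another gene at 90% identity over 100 bases for 9 members, and for Csf1r found the antisense overlap with Hmgxb3. The procedure was tested on simulated data.

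The members, lists and alternatives were chosen with earlier results of these data known. Named are all members, all ligands, partners and factors, up to 2 genes at each end of each other microglial list and the 5 nearest genes, except that some items are not reported here. Gfap, Xist, Ddx3y and the border macrophage markers at 0 are also named, and the promoters of P2ry13 and Slc2a5 were added after their values were seen. The promoter of Cx3cr1 is not printed because it lies in an annotated exon. The alternatives were pseudocounts of 0.1 and 0.5, no filter, a mean FPKM of at least 5, scaling to the same FPKM sum (TPM) or by total reads, read ratios with at least 3 reads, a threshold of 1.5-fold, the mean, and leaving out the most changed member. Computations used scipy 1.17.1, pandas 2.3.3 and numpy 2.4.6 under Python 3.11.15, and plots matplotlib 3.10.9.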

Additional observations from a re-analysis of the deposited data

How the results depend on the processing

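No paired analysis was possible because each genotype has 1 library, and for the same reason no replicate could be left out. Of 180 single-member differences under alternatives, 163 moved by less than 0.5 of the width of their counting interval on the log2 scale. The other 17 moved by more, and no difference of at least 2-fold changed sign. The 163 include every difference under the alternative of no filter, which cannot change the value of a single gene. The sign changes were those of Sall1 between PS19 Zbp1+/- and WT, to -0.03 with either other scaling. Rescaling to the same FPKM sum (TPM) moved the median of all genes between PS19 Zbp1+/- and PS19 from 0.04 to -0.21 and that of the members from -0.59 to -0.83, so the members' distance to all genes barely changed. The P2ry12 difference in that comparison went from -0.20 to -0.46 and that of Tmem119 from -0.26 to -0.52. Scaling by total reads moved the median of all genes to -0.12. Between PS19 Zbp1+/- and WT, the same rescaling took the all-gene median from 0.01 to -0.13, that of the members from 0.30 to 0.18, that of the pan-microglia list from 0.17 to 0.02 and that of the disease-associated list from -0.11 to -0.23. At a threshold of 1.5-fold, 6 members were higher in PS19 than in WT. In PS19 Zbp1+/-, 6 were below PS19, 1 was above PS19, 3 were above WT and 1 was below WT. The share of all genes past 1.5-fold was not computed, so these counts cannot be set beside a background. In PS19 Zbp1+/-, Slc2a5 counted as 2-fold above PS19, a count of 1 in place of 0, with pseudocounts of 0.1 and 0.5 and with read ratios. Read ratios also moved the members' median relative to the pan-microglia list from 0.90 to 1.17 in that comparison. With a mean FPKM of at least 5, between 5 and 8 members were left. Depth limits Slc2a5 most, with as few as 68 reads.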
